A study of Mus musculus with 3 samples.

Results

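The cells described here are named conventional helper CD4 T cells by a rule. They came from KP1 tumors and carried transcripts of a TNF family helper ligand and none of the checkpoint receptor gene Lag3. They were selected on measured transcripts. Barcodes were kept from 200 detected genes upward if no more than 20% of their unique molecular identifiers (UMIs, each counting 1 captured transcript) were mitochondrial, and further limits then chose the members. A member had 2 or more UMIs of the 6 T cell receptor complex genes Cd3d, Cd3e, Cd3g, Trac, Trbc1 and Trbc2, under 5 UMIs of the 5 myeloid genes Lyz2, C1qa, C1qb, S100a8 and S100a9, and at least 1 UMI of Cd4. It had none of Cd8a, Cd8b1, Foxp3 or Lag3, at least 1 UMI of Cd40lg or Tnfsf8, and under 3 UMIs of the proliferation genes Mki67 and Top2a. Of 71909 kept barcodes, 37695 passed the T cell receptor and myeloid limits and 1291 were members, of which mono-IL-10 gave 387, the IL-10/2-Trikine 425 and the Trikine plus anti-PD-1 antibody 479.

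KP1 is a mouse line of small-cell lung cancer with mutant Rb and p53. Wild-type B6129SF1/J F1 mice, bought at 5 to 6 weeks of age, carried tumors grown from 500000 cells placed under the skin, and live CD45+ leukocytes were sorted on day 19. No group without cytokine is among the 3 libraries. The treatment label Supermono-10 names the mono-IL-10 group. Mono-IL-10 is a monomeric human interleukin-10 that signals through the IL-10 receptor, mainly to STAT3, and the IL-10/2-Trikine joins it to a non-signaling IL-2 variant that draws IL-2Rβ into the same complex and adds STAT5. Cytokine was given at 3 µg on alternate days until day 19, from day 7 in the preparation protocol, although the start day differs between parts of the study's description, and the combination group also had 200.0 µg of a PD-1 antibody on day 7 and on days 11, 15 and 19 after inoculation. The preparation protocol can be read as adding the antibody for every group, so the treatment labels were followed. Each group was 1 library and the number of mice behind it is not given in the sources used here. No difference below therefore has a replicate check, no test was run, and all intervals are 95% intervals that cover counting error only. Those of CPM and of CPM ratios treat each UMI as independent. They leave out differences between the cells of a library and are too narrow where few cells hold most UMIs of a gene.

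Helper CD4 cells act mainly through other cells. CD40L, encoded by Cd40lg, engages CD40 on dendritic cells, macrophages and B cells and licenses them to prime killer T cells, while CD30L, encoded by Tnfsf8, engages CD30 on activated lymphocytes. Both ligands appear after T cell receptor stimulation, and LAG-3 is an inhibitory receptor of repeatedly stimulated T cells that binds MHC class II.

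T cell transcripts outside the rule were examined too. The rule already required T cell receptor UMIs, so general T cell genes do not test the helper CD4 label. All 11 further T cell genes examined, among them Cd28, Thy1, Lck and the CD4-lineage factor gene Zbtb7b, were detected in each library. Together they made 4397, 4284 and 4454 CPM (counts per 1e6 UMIs) of the summed members in the mono-IL-10, Trikine and combination libraries, against 1290, 1899 and 1588 CPM in near-empty droplets of 10 to 100 UMIs. Zbtb7b itself was sparse, with 32, 23 and 16 UMIs or 18.5, 12.8 and 7.87 CPM. In the combination library it was not above the 8.30 CPM of near-empty droplets. The helper CD4 label therefore rests on the rule. The members had medians of 3632, 3393 and 3450 UMIs and 1740, 1658 and 1658 genes, and their UMIs summed to 1729972, 1797825 and 2034031. No member barcode occurred in more than 1 library, although 137 to 180 kept barcodes were shared by pairs of libraries. Transcripts of other cells were present at low levels and were not equal between libraries. At least 1 UMI of 8 B cell genes was found in 33.6% of members under mono-IL-10, 21.4% under the Trikine and 12.7% under the combination, and at least 1 myeloid UMI in 21.4%, 8.71% and 16.9%. The 6 B cell markers summed to 218, 52.3 and 68.8 CPM, macrophage markers to 68.8, 27.8 and 55.6 CPM, and NK cell markers to 152, 120 and 187 CPM. In near-empty droplets of the same libraries the B cell markers made 954, 1202 and 167 CPM, and the macrophage markers 1691, 504 and 1056 CPM. The immunoglobulin gene Ighm alone gave 323, 1174 and 116 CPM of that B cell sum, while other B cell markers were highest under mono-IL-10, such as Ebf1 at 389, 4.15 and 20.4 CPM and Ms4a1 at 98.4, 3.83 and 7.15 CPM. The part of such transcripts in the differences below was not tested beyond the values given beside them.

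Members made up 4.26% (3.85 to 4.70%) of T cell barcodes under mono-IL-10, 3.02% (2.74 to 3.31%) under the Trikine and 3.30% (3.01 to 3.60%) in the combination library. The ratio of shares was 0.708 (0.619 to 0.811) for Trikine over mono-IL-10 and 1.09 (0.961 to 1.24) for the combination over Trikine. The order depended on the denominator, and T cell barcodes numbered 9083, 14088 and 14524 in the 3 libraries. Of all kept barcodes, members were 1.74%, 1.87% and 1.78%, with ratios of 1.08 (0.938 to 1.23) and 0.949 (0.834 to 1.08). Among Foxp3-negative Cd4 barcodes they were 27.0%, 31.4% and 18.2%, with ratios of 1.16 (1.04 to 1.31) and 0.579 (0.517 to 0.649), and the Lag3-positive barcodes of that denominator numbered 559, 539 and 1533. A share among sorted cells does not tell how many such cells a tumor held.

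The rule selected barcodes that lie close to its limits. Of the members, 148, 124 and 163 held a single Cd4 UMI, and 220, 244 and 211 further barcodes missed the rule only by having none. A single ligand UMI qualified 138, 109 and 154 members, while 486, 389 and 620 barcodes met every limit except the ligand one. A single Lag3 UMI alone kept out 62, 124 and 179 barcodes, and a single Cd8a or Cd8b1 UMI 24, 23 and 33. In gates of B cells, macrophages and neutrophils from the same libraries, at most 1 barcode per gate held both a Cd4 and a ligand UMI. These were 1 of 5149 macrophages of the mono-IL-10 library, 1 of 165 B cells of the Trikine library and 1 of 54 neutrophils of the combination library.

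The members differed between libraries in which ligand they carried. Cd40lg without Tnfsf8 was found in 160 of 387 members (41.3%) under mono-IL-10, in 104 of 425 (24.5%) under the Trikine and in 115 of 479 (24.0%) under the combination. Tnfsf8 without Cd40lg was found in 130 (33.6%), 164 (38.6%) and 241 (50.3%), and both ligands in 97 (25.1%), 157 (36.9%) and 123 (25.7%). Cd40lg was therefore most frequent as the lone ligand under mono-IL-10, and Tnfsf8 under the combination. Summed over members, Cd40lg made 294, 246 and 171 CPM and Tnfsf8 561, 712 and 764 CPM. With each member thinned to 1000 UMIs, which kept 382, 424 and 472 members, Cd40lg was detected in 29.8%, 30.0% and 15.5% and Tnfsf8 in 27.7%, 45.3% and 46.0%. Because the rule required a ligand UMI, these values describe the selected cells and are not evidence about helper cells at large. Transcripts of the lymph node homing receptor CCR7, which marks naive and central memory cells, were found in 106 members (27.4%) under mono-IL-10, 31 (7.29%) under the Trikine and 46 (9.60%) under the combination. Of the members with a Ccr7 UMI, 50.9%, 32.3% and 17.4% also held a B cell gene UMI.

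**Figure D1:**
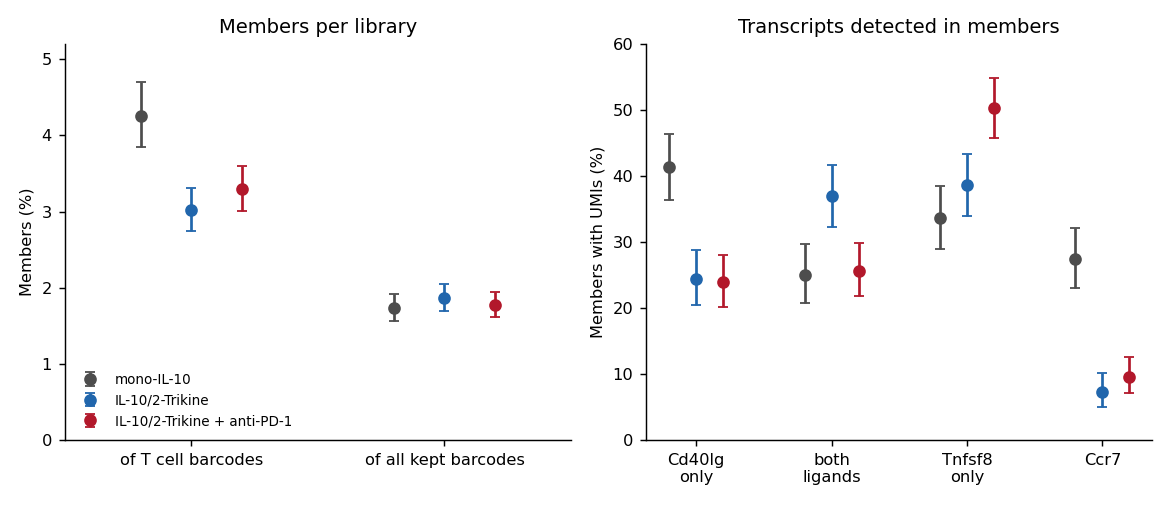
Share of members per library with 2 denominators (left) and share of members with UMIs of the helper ligands or of Ccr7 (right), both in percent. Points are single libraries and bars are exact 95% intervals of the share. The mono-IL-10 point is highest of T cell barcodes (4.26%) but not of all kept barcodes (1.74%), and Ccr7 stands at 27.4% there against 7.29% and 9.60%.

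Members with Tnfsf8 alone and members with Cd40lg alone also differed in other transcripts. Of 5691 genes with at least 20 UMIs in both subsets together in each library, 80 (1.41%) differed at least 1.5-fold the same way in all 3 libraries. Of these, 57 were higher and 23 lower in the Tnfsf8-only members. Ratios from 20 UMIs can pass the fold by counting error, and how many of the 80 did so was not tested. Il1r2, the decoy receptor for interleukin-1, stood at 165, 63.4 and 66.8 CPM in Tnfsf8-only members and 15.0, 13.1 and 11.3 CPM in Cd40lg-only members. Il1r2 is also a neutrophil gene. Over all members it made 98.3, 38.9 and 56.5 CPM, against 97.5, 59.6 and 37.5 CPM in near-empty droplets. Of the other neutrophil markers, members held 5, 3 and 3 UMIs of Csf3r, 3, 2 and 10 of Mmp9, 1, 0 and 0 of Cxcr2 and none of Retnlg. Mmp9, Cxcr2 and Retnlg did not exceed 5.74 CPM in near-empty droplets either, so their low counts say little. The source of the Il1r2 transcripts was not tested. The chemokine gene Ccl1 was higher in Tnfsf8-only members by 3.05, 0.67 and 2.43 on the log2 scale, and Tnfsf11, which encodes RANKL, by 1.68, 0.84 and 1.66. Granzyme B and the chemokine CCL5, products of cytotoxic effector cells, lay on the Cd40lg-only side. Gzmb was at 73.6, 588 and 687 CPM in Tnfsf8-only members against 539, 1735 and 2389 CPM in Cd40lg-only members. Ccl5 was at 912, 554 and 703 CPM against 3352, 1709 and 3131 CPM, and Gzmk was lower in Tnfsf8-only members of all 3 libraries too. The genes with the largest ratios on the Tnfsf8-only side also included several that are known from myeloid and antigen-presenting cells, namely Alox5ap, Plbd1, Cd83, H2-DMb1, Napsa, Ms4a6c and Ifi30. Cd83, for example, was at 136, 56.0 and 53.4 CPM in Tnfsf8-only members and 68.4, 13.1 and 4.54 CPM in Cd40lg-only members. An alternative chosen after seeing the data left out deep and mixed barcodes, those over 3 times the median depth, with 5 or more UMIs of the 8 B cell genes or of H2-Aa, H2-Ab1 and Cd74, or with any UMI of the tumor genes Chga and Uchl1. Without them 13 of the 20 genes with the largest ratios on the Tnfsf8-only side and 14 of the 20 on the Cd40lg-only side were still past the fold in all libraries. Those lost on the first side were Lrrk2, Alox5ap, Plbd1, H2-DMb1, Napsa, Ms4a6c and Ifi30, and Gzmk was among those lost on the other. Il1r2, Ccl1, Tnfsf11, Gzmb and Ccl5 stayed past it. Cd83 did too, with log2 ratios of 2.90, 0.62 and 4.07, unlike the other myeloid and antigen-presenting genes named above. A myeloid UMI was found in 23.8%, 11.6% and 17.0% of Tnfsf8-only members and in 18.8%, 4.81% and 17.4% of Cd40lg-only members. The split was made on measured ligand UMIs, and the median depth of the Tnfsf8-only members (3884, 3374.5 and 3541 UMIs) was above that of the Cd40lg-only members (3228, 3031.5 and 3091).

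The first comparison asks what the members expressed when the IL-2Rβ arm was added to mono-IL-10. Under the IL-10/2-Trikine, Ifitm transcripts, the granzyme genes Gzma and Gzmb, the IL-2 receptor α chain and several checkpoint and costimulatory receptors were higher, and genes of naive and follicular helper cells, guanylate-binding proteins and the immediate-early genes Jun and Fos were lower. A gene was called where its CPM ratio in the summed members was at least 1.5 or at most its inverse, among 5203 genes with at least 100 UMIs in the pair. By that size alone 363 genes were higher (6.98% of those measured) and 679 lower (13.1%), with a median log2 ratio of -0.06 over all genes. Scaling by trimmed means of M values (TMM) shifted every ratio by 0.13 on the log2 scale, moved that median to 0.07 and turned the split to 591 higher and 448 lower, and median-of-ratios scaling gave 594 and 444. Genes were described in 25 lists with 383 genes in all. Some genes, such as Pdcd1, belong to several lists, so the list counts are not independent of each other. Of the named genes past the fold, 32 of 45 higher and 34 of 41 lower stayed past it in all 16 alternatives run.

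**Figure D2:**
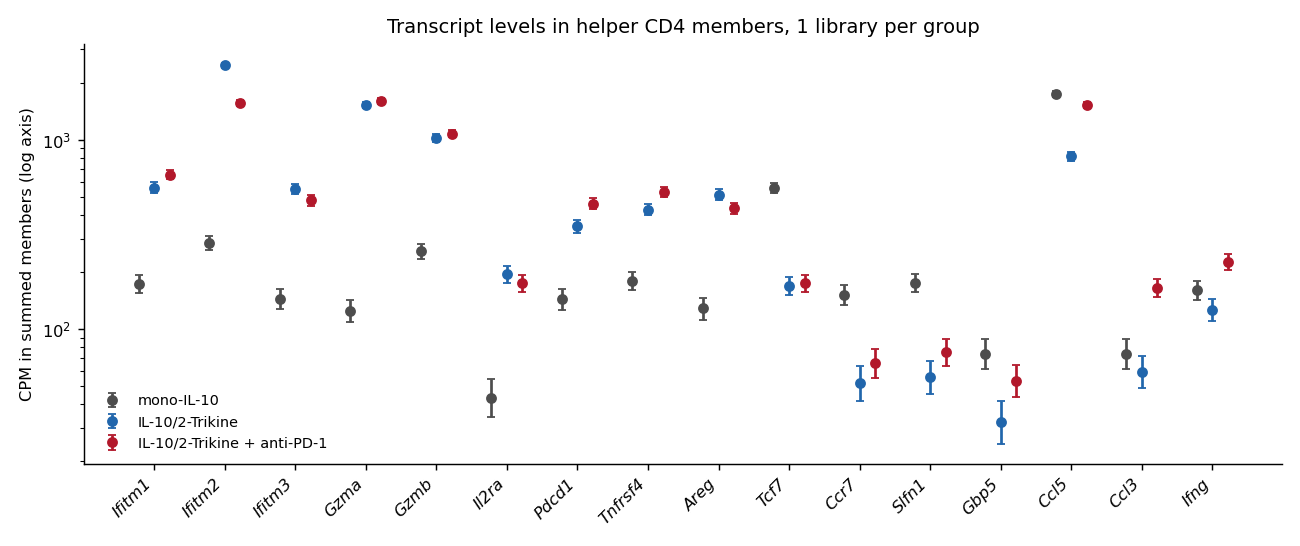
CPM of 16 genes in the summed members of each library on a log axis, with exact Poisson 95% intervals. Ifitm2, Gzma, Il2ra and Pdcd1 lie higher and Tcf7, Ccr7 and Gbp5 lower in the Trikine library than in the mono-IL-10 library, and Ccl3 and Ifng lie highest in the combination library.

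The Ifitm genes encode small membrane proteins that restrict virus entry and are classical interferon targets. All 3 measured family members were past 1.5-fold higher, with a median log2 ratio of 1.93 (2.06 with TMM). Ifitm2 stood at 284 CPM under mono-IL-10, 2466 CPM under the Trikine and 1562 CPM under the combination, a Trikine over mono-IL-10 ratio of 8.67 (7.90 to 9.54). Its log2 ratio of 3.12 lay between 2.90 and 3.72 under every alternative. With members thinned to 1000 UMIs, Ifitm2 was detected in 10.5%, 63.4% and 48.9% of them, against 112 of 817, 33 of 165 and 40 of 203 B cells, so the mono-IL-10 share was at the B cell level. Without thinning the shares of members were 19.1%, 75.5% and 67.2%. Median depth was 3632, 3393 and 3450 UMIs in members and 4502, 4547 and 5604 UMIs in B cells. Ifitm3 was at 144, 547 and 478 CPM, and Ifitm1 at 173, 558 and 652 CPM. For Ifitm1 a single barcode held 34.4% of the UMIs of the mono-IL-10 library, and the gene was found in 25 members there against 109 and 142 in the other libraries.

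Other interferon genes were lower or not past the fold in this comparison. Of 19 measured type I interferon-stimulated genes outside the Ifitm family, none was past the fold higher and 10 were lower (median log2 ratio -0.70), and of 26 interferon-γ response genes none was higher and 11 were lower (median -0.43). With TMM scaling the counts were 1 higher and 9 lower for the first list and 0 and 9 for the second. Slfn1, a schlafen gene of resting T cells, was at 175, 55.6 and 75.2 CPM, and the DNA sensor family gene Ifi209 at 122, 41.7 and 56.1 CPM. The guanylate-binding proteins are GTPases induced by interferon-γ that attack intracellular pathogens. Gbp5 stood at 74.0, 32.3 and 53.1 CPM, Gbp4 at 94.2, 37.8 and 57.0 CPM and Gbp6 at 54.9, 21.7 and 41.8 CPM. All 3 were lowest in the Trikine library. Isg15, a ubiquitin-like interferon-stimulated protein, did not follow them, with 163, 172 and 264 CPM.

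The promoters of the Ifitm genes and of Gbp5 are shown because these interferon targets moved apart. The sequences come from RefSeq on GRCm38.p6 and span 250 bases before to 30 bases after each start, which is not the build named in the methods, and 11 of 15 genes looked up had a promoter in the table. Both strands were searched for TTCNNNGAA, the core of a STAT site, and GAAANNGAAA, the core of an interferon-stimulated response element, and matches are in capitals.
Ifitm1, chr7:140967826-140968105, plus strand: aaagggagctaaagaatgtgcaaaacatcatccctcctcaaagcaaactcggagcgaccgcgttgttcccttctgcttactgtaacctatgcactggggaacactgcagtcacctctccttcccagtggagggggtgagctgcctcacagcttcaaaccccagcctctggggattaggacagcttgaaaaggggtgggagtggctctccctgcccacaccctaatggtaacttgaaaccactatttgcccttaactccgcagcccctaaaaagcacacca
Ifitm2, chr7:140955932-140956211, minus strand: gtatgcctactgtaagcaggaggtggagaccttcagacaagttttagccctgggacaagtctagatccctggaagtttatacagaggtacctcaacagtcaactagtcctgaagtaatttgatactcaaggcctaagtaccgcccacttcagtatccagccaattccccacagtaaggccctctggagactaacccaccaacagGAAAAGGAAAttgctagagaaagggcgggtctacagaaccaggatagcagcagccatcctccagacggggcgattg
Ifitm3, chr7:141010715-141010994, minus strand: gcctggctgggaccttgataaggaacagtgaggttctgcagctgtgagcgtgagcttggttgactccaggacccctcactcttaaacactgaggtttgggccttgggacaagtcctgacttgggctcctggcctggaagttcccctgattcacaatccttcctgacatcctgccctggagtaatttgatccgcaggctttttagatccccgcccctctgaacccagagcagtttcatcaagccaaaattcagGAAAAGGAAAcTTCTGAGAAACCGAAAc
Gbp5, chr3:142496684-142496963, plus strand: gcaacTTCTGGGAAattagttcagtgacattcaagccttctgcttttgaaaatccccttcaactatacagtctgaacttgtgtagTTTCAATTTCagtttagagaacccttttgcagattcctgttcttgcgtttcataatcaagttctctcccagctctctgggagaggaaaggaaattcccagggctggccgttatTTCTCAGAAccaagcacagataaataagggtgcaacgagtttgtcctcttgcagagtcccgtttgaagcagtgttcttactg
Ifitm1 had neither motif in this window. Ifitm2 had 1 GAAANNGAAA that begins 46 bases before the start. Ifitm3 had 2, which begin 2 and 19 bases after the start, and 1 TTCNNNGAA that overlaps the second of them, so the capitals of these matches run together. Gbp5 had 2 TTCNNNGAA matches and 1 GAAANNGAAA on the opposite strand. Of the promoters searched but not shown, Cish had 2 TTCNNNGAA, and Slfn1, Ifi209, Il2ra, Tnfsf8, Xcl1 and Ccl3 had neither motif. Among 32851 promoters of the same length, 7.83% held TTCNNNGAA and 3.28% held GAAANNGAAA. A match describes the letters only, and no factor binding was measured.

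Naive and egress genes formed the list with the most lower members. Of 18 measured genes 14 were past the fold lower and 1 higher (median log2 ratio -1.36), or 12 and 1 with TMM. The higher one was the IL-7 receptor gene Il7r (log2 ratio 0.84). It ranged from 0.42 to 0.98 over the alternatives and was not past the fold in all. S1pr1, the egress receptor for sphingosine-1-phosphate, was under the fold at -0.22. TCF-1, the product of Tcf7, keeps T cells self-renewing and able to recirculate. Tcf7 stood at 554, 169 and 174 CPM, a Trikine over mono-IL-10 ratio of 0.304 (0.267 to 0.347), and at equal depth it was detected in 41.6%, 16.0% and 14.0% of members while B cells and macrophages stayed under 1%. Without thinning the Tcf7 shares were 71.3%, 32.0% and 31.3%. Its partner gene Lef1 was at 405, 127 and 129 CPM and Bach2, a repressor of effector differentiation, at 271, 72.9 and 137 CPM. Igfbp4 and Dapl1, 2 genes of quiescent naive T cells, had 228 and 135 UMIs in the mono-IL-10 library but only 2 and 1 UMIs in the Trikine library, with ratios of 0.00844 (0.00102 to 0.0308) and 0.00713 (0.000179 to 0.0404). Ccr7 was at 151, 51.7 and 65.9 CPM. The receptor pair for interleukin-6 was also highest under mono-IL-10, with Il6ra at 75.7, 9.46 and 6.39 CPM and Il6st, which encodes gp130, at 98.3, 19.5 and 18.2 CPM. Ccr7 and Bach2 are also B cell genes, and B cell markers in the members moved the same way (218, 52.3 and 68.8 CPM). Without the members that held a B cell gene UMI, 12 of 17 measured naive and egress genes were lower and 1 higher (median log2 ratio -1.24), and Tcf7 had a log2 ratio of -1.74.

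Follicular helper genes were lower as well, with 8 of 13 past the fold lower and 2 higher (median log2 ratio -1.04), or 7 and 3 with TMM. The higher pair was Pdcd1, which encodes PD-1 (log2 ratio 1.28), and Maf (0.70), and Batf and Icos had log2 ratios of 0.47 and 0.40, under the fold. Bcl6, the lineage factor of follicular helper cells, was at 114, 51.7 and 74.7 CPM, although its share at equal depth (7.59%, 3.54% and 6.14%) did not exceed that in the B cells (10.9%, 8.48% and 8.87%). Slamf6, an adhesion receptor of progenitor-like T cells, was at 264, 96.8 and 89.5 CPM and Izumo1r, the folate receptor 4 gene, at 119, 41.7 and 39.8 CPM. Il21, the helper cytokine for B cells, was at 43.4, 13.9 and 21.1 CPM and was found in 33, 13 and 25 members. These lower genes were highest in the mono-IL-10 library, where B cell transcripts were also highest in the members (218, 52.3 and 68.8 CPM of the B cell markers). Without the members that held a B cell gene UMI, 7 of 12 measured follicular helper genes were lower and 2 higher (median log2 ratio -0.91). Bcl6 then had a log2 ratio of -0.995, Slamf6 of -1.32 and Izumo1r of -1.66, while Il21 fell under 100 UMIs.

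IL-2/STAT5 response genes were mostly on the higher side, with 10 of 21 past the fold higher and 2 lower (median log2 ratio 0.55), or 13 and 2 with TMM. Il2ra, which encodes the high-affinity IL-2 receptor α chain CD25, stood at 43.4, 194 and 174 CPM, a ratio of 4.48 (3.48 to 5.83), and was detected in 2.88%, 11.8% and 9.96% of members at equal depth. Socs2, a feedback inhibitor of cytokine receptors, was at 17.9, 115 and 80.6 CPM, and the related inhibitor gene Cish at 104, 156 and 184 CPM. Cish was barely past the fold, with a log2 ratio of 0.59, and had 0.29 among members with no Ccr7 UMI. Cdkn1a, the cell cycle inhibitor p21, was at 100 CPM in the mono-IL-10 library and 448 and 568 CPM in the other libraries. The receptor chains themselves differed in direction. Il2rb at 193, 250 and 331 CPM and Il10rb at 49.7, 47.8 and 46.2 CPM were under the fold. Il10ra, at 51.4, 32.3 and 27.5 CPM, was past the fold lower by CPM. Of 20 cytokine receptor, JAK and STAT genes 2 were past the fold higher and 6 lower, or 3 and 3 with TMM. Stat5a was at 121, 79.5 and 118 CPM and Stat3 at 551, 504 and 734 CPM. The IL-10/STAT3 list had 3 of 13 genes higher and 2 lower, or 6 and 2 with TMM, and Socs3, its feedback inhibitor, stood at 156, 133 and 143 CPM. The IL-7 receptor gene Il7r, a survival receptor of memory T cells, was at 620, 1106 and 994 CPM and was detected in 39.5%, 58.3% and 52.1% of members at equal depth.

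Cytotoxic genes were higher in these helper cells, with 9 of 12 past the fold higher and 1 lower (median log2 ratio 1.23), or 10 and 1 with TMM. Gzma, a granule protease, stood at 124, 1517 and 1601 CPM, a Trikine over mono-IL-10 ratio of 12.2 (10.6 to 14.1). Gzmb was at 257, 1023 and 1074 CPM. The granzyme inhibitor genes Serpinb9 and Serpinb6b were at 116, 462 and 524 CPM and at 113, 472 and 497 CPM. Granzyme K went the other way, with Gzmk at 183, 77.3 and 83.1 CPM. The pore-forming protein gene Prf1 was at 42.2, 46.7 and 77.7 CPM, and the lectin receptor gene Klrd1 (CD94) at 86.1, 283 and 287 CPM. NK cell marker transcripts summed to 152, 120 and 187 CPM in the members and 525, 625 and 887 CPM in near-empty droplets. Tyrobp made 137, 137 and 139 of their 263, 216 and 380 UMIs in members. From mono-IL-10 to the Trikine the other markers did not move together, but all had more UMIs in the combination than in the Trikine library. Ncr1 had 5, 15 and 26 UMIs and Klre1 30, 40 and 146, while Eomes had 48, 10 and 21, Klrb1c 30, 8 and 40 and Klra8 13, 6 and 8. Trdc, the constant region of the γδ T cell receptor, had 6, 44 and 23 UMIs and was found in 0.517%, 2.82% and 2.09% of members. The part of such cells in the cytotoxic values was not tested. Fasl, the death ligand, was at 93.6, 231 and 240 CPM.

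Checkpoint and costimulatory receptors split. Pdcd1, which encodes PD-1, stood at 143, 349 and 460 CPM and was detected at equal depth in 9.69%, 25.9% and 33.9% of members, with ratios of 2.68 (1.90 to 3.79) and 1.31 (1.07 to 1.60). The share in B cells was between 0.367% and 1.48%, and without thinning the shares of members were 26.6%, 56.0% and 62.4%. Pdcd1 together with Icos, the inducible costimulator, was detected in 3.66%, 12.5% and 16.3% of members, a ratio of 3.41 (1.92 to 6.05) for Trikine over mono-IL-10 and 1.31 (0.944 to 1.81) for the combination over Trikine. Havcr2, which encodes the inhibitory receptor TIM-3, was at 19.7, 126 and 134 CPM. The OX40 gene Tnfrsf4 was at 179, 427 and 527 CPM and was detected in 9.95%, 34.4% and 37.7% of members, while at most 0.606% of B cells and 0.451% of macrophages held it. GITR (Tnfrsf18) at 127, 367 and 377 CPM and 4-1BB (Tnfrsf9) at 114, 279 and 330 CPM followed the same order. Cd28, the primary costimulatory receptor, was at 476, 397 and 348 CPM and Icos at 545, 717 and 793 CPM, neither past the fold. Btla, another inhibitory receptor gene, was lower, at 128, 60.1 and 73.3 CPM. Over the lists, 5 of 11 inhibitory receptor genes were higher and 2 lower (7 and 1 with TMM), and 3 of 14 costimulatory genes were higher and 2 lower under both scalings.

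Type 2 genes with enough UMIs were higher. All 3 measured Th2 genes were past the fold, among them Gata3, the Th2 lineage factor, at 102, 172 and 179 CPM and Il1rl1, the receptor for the alarmin IL-33, with 38, 110 and 169 UMIs. Areg, a growth factor of tissue repair, stood at 128, 512 and 434 CPM, a ratio of 3.99 (3.44 to 4.64). The 4 markers of group 2 innate lymphoid cells, Il1rl1 among them, summed to 36.4, 106 and 129 CPM in the members, and their part was not tested. Th1 genes had 6 of 14 members higher and 2 lower (7 and 2 with TMM). Without the members that held a B cell gene UMI, only 2 of 14 were higher and 2 lower. Il12rb2, the IL-12 receptor chain of Th1 cells, was at 59.0, 128 and 159 CPM, whereas Tbx21, the Th1 lineage factor T-bet, was at 71.1, 77.3 and 109 CPM and the Th1 homing receptor gene Cxcr3 at 147, 88.4 and 81.1 CPM. Cxcr6, a receptor of tissue-resident T cells, was at 149, 268 and 316 CPM.

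Helper cytokine and chemokine genes with at least 100 UMIs in the pair were not higher as groups. Of 4 such cytokine genes 2 were lower and none higher, and of 6 chemokines 3 were lower and 1 higher (2 and 1 with TMM). Ifng was at 160, 126 and 226 CPM and Tnf at 64.7, 27.3 and 24.6 CPM. Ccl5 was at 1744, 816 and 1523 CPM, and Xcl1, which attracts cross-presenting dendritic cells, at 647, 93.4 and 351 CPM. The Xcl1 values rested on few barcodes, since it was found in 35, 22 and 57 members and the richest barcode held 30.9%, 49.4% and 15.1% of its UMIs. Without the richest barcode of each library its log2 ratios were -3.24 for Trikine over mono-IL-10 and 2.65 for the combination over Trikine, against -2.79 and 1.91 with all members. Il2 had only 18, 2 and 20 UMIs. The type 2 cytokine genes, which also stayed under the 100 UMIs required, had more UMIs in the Trikine library, with 13, 37 and 36 for Il4, 2, 38 and 49 for Il5 and 5, 86 and 178 for Il13. The direction of the cytokine list depended on this limit and on the rule: its median log2 ratio of -0.83 became 0.20 with genes from 20 UMIs, 0.29 with a Cd40lg UMI required and 0.076 with Lag3 not used.

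Glycolysis and hypoxia genes had 9 of 17 members higher and 1 lower (median log2 ratio 0.62), or 12 and 0 with TMM. The glucose transporter gene Slc2a3 was at 24.3, 72.9 and 56.1 CPM, and the glycolytic enzyme genes Tpi1, Aldoa and Pgk1 were higher by log2 ratios of 0.88, 0.84 and 0.80. Immediate-early and heat shock genes had 2 of 22 higher and 7 lower with a median log2 ratio of 0.11, or 3 and 5 with TMM, so the list as a whole was not lower. The AP-1 genes Jun and Fos, which respond quickly to stimulation, were at 277, 54.0 and 50.2 CPM and at 347, 107 and 171 CPM. Of 8 MHC class I genes none passed the fold in either direction, and of 14 survival genes 1 was lower (1 higher and 1 lower with TMM). All 3 measured G2/M genes and 1 of 8 S phase genes (2 with TMM) were higher, although the rule itself limited Mki67 and Top2a, and homing receptors had 7 of 17 higher and 2 lower (8 and 2 with TMM). Antigen-signal genes had 1 of 12 higher and 4 lower (1 and 3 with TMM), TNF superfamily ligands outside the rule 2 of 6 higher and 1 lower, and the single measured Th17 gene did not pass the fold. The largest ratios outside the lists included Lgals7, a galectin, at 9.83, 127 and 37.9 CPM, and the metallothionein gene Mt1 at 7.51, 68.4 and 15.2 CPM.

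Because Ccr7 transcripts were found in 27.4% of members under mono-IL-10 and 7.29% under the Trikine, the gene ratios and list counts were recomputed in the 281, 394 and 433 members that had none. In these, 4539 genes were measured, 268 were past the fold higher (5.90%) and 576 lower (12.7%), against 363 and 679 with all members. Ifitm2 had a log2 ratio of 2.90 there against 3.12 in all members, Gzma 3.34 against 3.61 and Tcf7 -1.93 against -1.72. Of the naive and egress genes 10 of 15 measured were then lower and 1 higher (median -1.13), and of the follicular helper genes 8 of 12 were lower and 1 higher (median -1.09). Some ratios were smaller without these members. Pdcd1 went from 1.28 to 1.03, Lef1 from -1.67 to -1.13, Cxcr6 from 0.85 to 0.50 and Maf, a factor of follicular helper and IL-10-producing T cells, from 0.70 to 0.39, and the latter pair was then under the fold. Of 14 Th1 genes 2 were then higher and 3 lower, and of 11 inhibitory receptor genes 4 were higher and 2 lower. The reduced set of the mono-IL-10 library still held 99 UMIs of Igfbp4, a naive T cell gene, against 2 in that of the Trikine library.

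**Figure D3:**
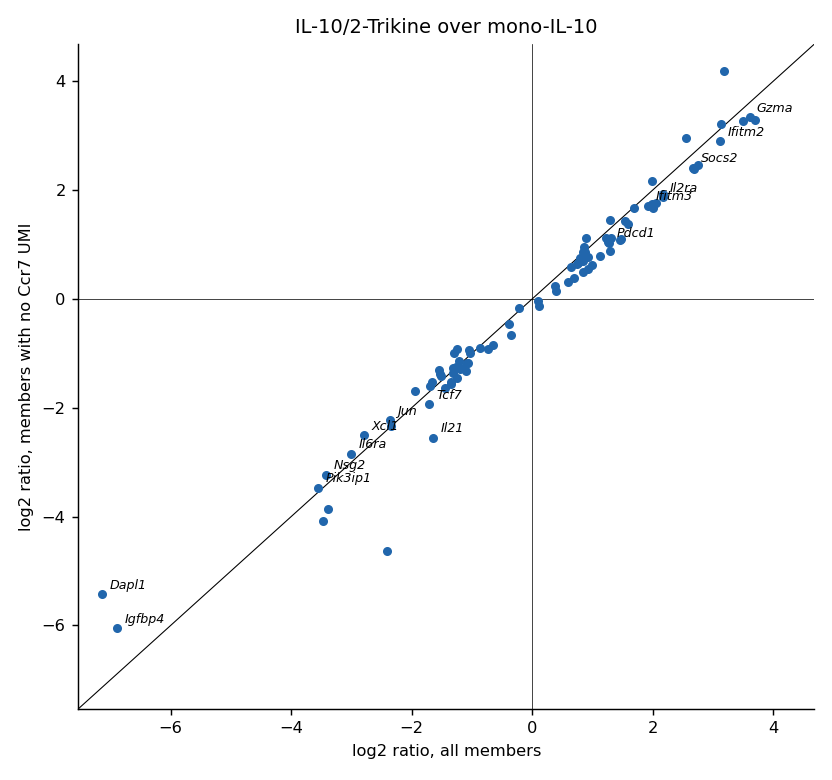
Log2 CPM ratio of Trikine over mono-IL-10 for 92 named genes in all members (x axis) and in members with no Ccr7 UMI (y axis), with the line of equality. Each point is 1 gene. Ifitm2, Gzma and Tcf7 lie near the line, while Igfbp4 and Dapl1 lie above it at the lower left, with log2 ratios of -6.05 and -5.42 in the reduced set.

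The second comparison asks what anti-PD-1 added to the IL-10/2-Trikine, and it shares the Trikine library with the first, so a value that was high or low in that library by itself enters both. Fewer genes passed the fold: of 5283 measured, 158 were higher in the combination (2.99%) and 73 lower (1.38%), with a median log2 ratio of 0.03. The higher genes included chemokines, interferon-γ response genes and genes of antigen receptor signaling. Of the named genes past the fold, 8 of 33 higher and 3 of 13 lower stayed past it in all 16 alternatives, the higher ones being Btaf1, Ccl3, Ccl4, Errfi1, Gbp2b, Gbp6, Mir155hg and Serpine2, and the lower ones Cxcl2, Lgals7 and Mt1.

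Of 6 chemokine genes 5 were past the fold higher and none lower (median log2 ratio 0.97). With TMM the counts were the same and the median was 0.95. An NK cell marker UMI was found in 20.7%, 12.9% and 26.9% of members under mono-IL-10, the Trikine and the combination. The part of NK cell transcripts in the chemokine values was not tested. CCL3 and CCL4 attract T cells, monocytes and dendritic cells. Ccl3 was at 74.0, 59.5 and 164 CPM in the mono-IL-10, Trikine and combination libraries, a combination over Trikine ratio of 2.76 (2.21 to 3.46), and Ccl4 at 346, 220 and 453 CPM. Ccl3 was found in 25, 26 and 62 members, and the richest barcode held 39.8%, 37.4% and 31.4% of its UMIs. Leaving out that barcode in each library gave Ccl3 a log2 ratio of 1.59 against 1.46. Ccl1, a ligand of the Th2 receptor CCR8, was at 95.4, 178 and 307 CPM, and Ccl5 was higher than in the Trikine library (816 and 1523 CPM) but not than in the mono-IL-10 library (1744 CPM).

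Of 25 interferon-γ response genes 4 were higher and none lower (median log2 ratio 0.30), or 3 and 0 with TMM, and of 18 type I genes 3 were higher and 2 lower. Gbp2b was at 47.4, 27.8 and 63.4 CPM, and Gbp6 and Gbp5 had ratios of 1.93 (1.30 to 2.89) and 1.65 (1.19 to 2.31). Isg15 had a ratio of 1.53 (1.33 to 1.77). Ifng, the main Th1 cytokine, was at 126 CPM in the Trikine library and 226 CPM in the combination library, a ratio of 1.80 (1.53 to 2.11), with log2 ratios between 0.30 and 1.19 over the alternatives. At equal depth Ifng was detected in 9.69%, 9.91% and 13.3% of members. The combination over Trikine ratio of these shares was 1.35 (0.933 to 1.95), an interval that includes no difference. It was 1.21 (0.898 to 1.63) at 2000 UMIs and 1.45 (1.16 to 1.82) without thinning. Ifitm2 was the one family member past the fold lower, with a ratio of 0.633 (0.605 to 0.663), and that call was lost in some alternatives, where its log2 ratio ranged from -0.71 to -0.37. Ifitm3 and Ifitm1 had ratios of 0.874 (0.799 to 0.956) and 1.17 (1.08 to 1.27).

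Antigen-signal genes had 3 of 12 members higher and none lower (median log2 ratio 0.43). Mir155hg, the host transcript of microRNA-155, was at 87.9, 64.0 and 134 CPM, Nr4a2, an orphan nuclear receptor induced by antigen, at 210, 221 and 338 CPM and Nfatc1, the calcium-regulated factor NFAT2, at 170, 111 and 171 CPM. Errfi1, a feedback inhibitor of growth factor receptors, had a ratio of 2.18 (1.65 to 2.93). Pdcd1, the target of the antibody, had a ratio of 1.32 (1.19 to 1.46), which was under the fold, and Tigit, another inhibitory receptor gene, was at 26.6, 28.9 and 48.2 CPM. Cd27, a costimulatory receptor, was at 133, 100 and 154 CPM and Bach2 had a ratio of 1.88 (1.52 to 2.33). Klre1, an NK-type lectin receptor gene, was at 17.3, 22.2 and 71.8 CPM and was found in 16, 23 and 63 members, beside NK marker sums of 152, 120 and 187 CPM that include it. Serpine2, a protease inhibitor, was at 5.78, 23.4 and 76.7 CPM but in only 6, 16 and 29 members. Il13, a type 2 cytokine, was at 2.89, 47.8 and 87.5 CPM in 3, 25 and 21 members, with 33.1% of the combination UMIs in 1 barcode. Its log2 ratio of 0.87 turned to -1.23 when the rule was applied after thinning to 2000 UMIs and to -0.54 when Lag3 was not used.

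The naive and egress list had a median log2 ratio of 0.10 in this comparison. Of its 14 genes 2 were higher (14.3%, against 2.99% of all genes) and none lower. No follicular helper, MHC class I, S phase, G2/M, glycolysis or survival gene passed the fold in either direction. Those lists had only 11, 8, 10, 5, 16 and 14 measured genes. With 2.99% of all genes higher and 1.38% lower, their counts of 0 say little. Tcf7 had a ratio of 1.03 (0.883 to 1.21), Gzmb 1.05 (0.986 to 1.12), Il2ra 0.897 (0.771 to 1.04) and Tnfrsf4 1.23 (1.12 to 1.35). The values of the Trikine library were thus close to those of the combination library for these genes, and both lay apart from mono-IL-10. This describes the Lag3-negative members only. The Lag3-positive Foxp3-negative CD4 cells, which the rule left out, numbered 539 in the Trikine and 1533 in the combination library.

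**Figure D4:**
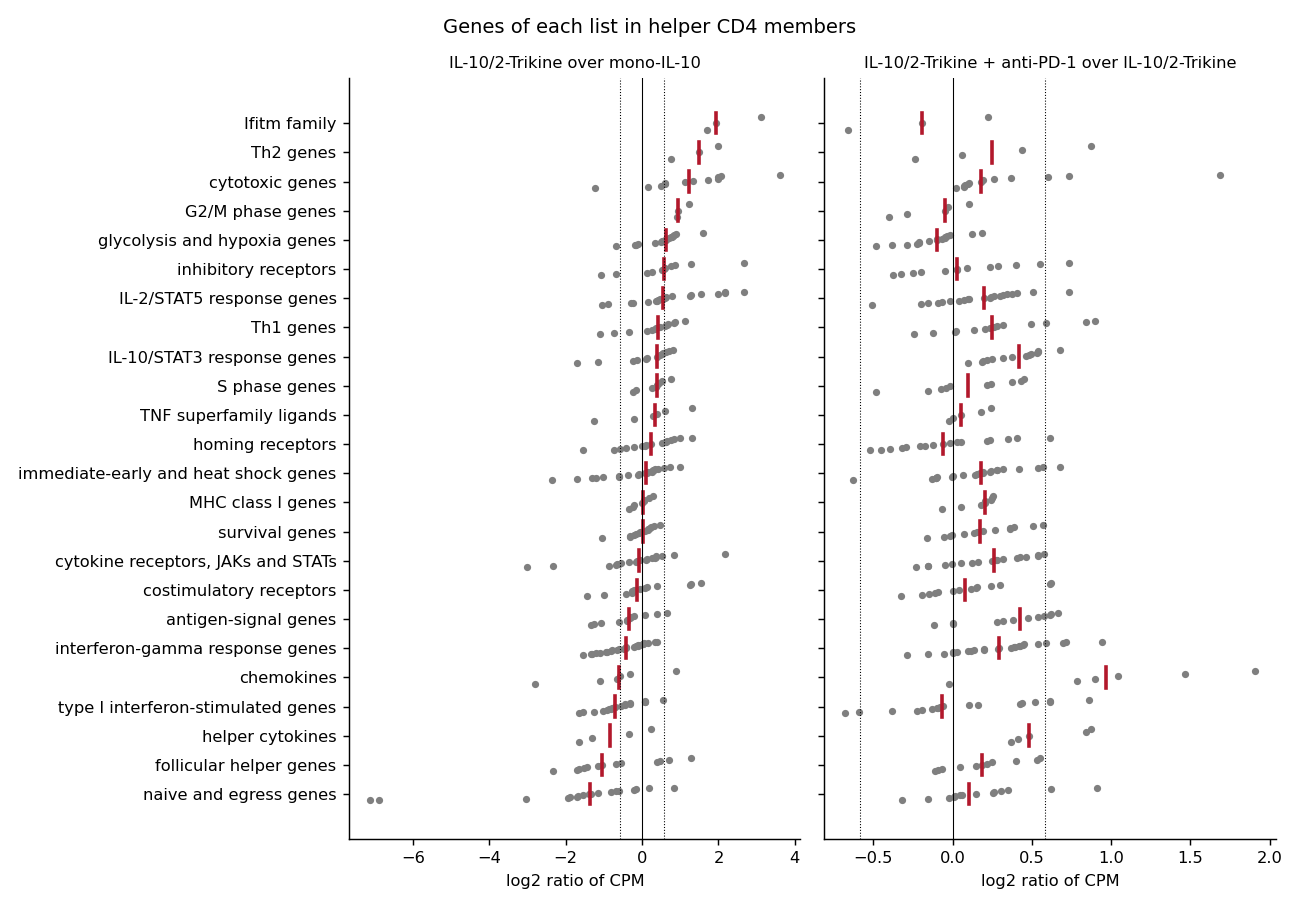
Log2 CPM ratio of each measured gene (grey points) in lists with at least 3 measured genes, for Trikine over mono-IL-10 (left) and the combination over Trikine (right), with list medians as red bars and dotted lines at 1.5-fold. The x ranges of the panels differ. The naive and egress median stands at -1.36 on the left and 0.10 on the right, and the chemokine median at -0.62 and 0.97.

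For several of the lowest ratios of the combination over Trikine, 1 barcode of the Trikine library with transcripts of another cell type held a large part of the UMIs. Mycl, a transcription factor gene used by small-cell tumors, was at 6.36, 71.7 and 6.39 CPM, but 100 of its 129 UMIs in the Trikine library came from 1 of 5 barcodes with 17856 UMIs, 5.26 times the median. That barcode also held 34 UMIs of Trit1, 41 of Ppie and 12 of the neuroendocrine gene Chga, and Trit1 and Ppie lie 1 and 4 genes from Mycl on the RefSeq annotation. For Cst3, a gene of dendritic cells, 254 of 493 UMIs came from 1 barcode with 111 UMIs of H2-Aa and 6 of Xcr1. For Cxcl2, 68 of 100 UMIs came from a barcode with 114 UMIs of Il1b and 101 of Cd74, and for Il1b, found in 23 members, 130 of 490 came from a barcode with 106 UMIs of H2-Aa. In the mono-IL-10 library 98 of 108 Jchain UMIs came from 1 barcode with 11986 UMIs of the immunoglobulin gene Igkc. The alternative without deep and mixed barcodes, chosen after seeing these values, kept 350, 397 and 449. Without them the combination over Trikine log2 ratios turned from -3.49 to 2.49 for Mycl, from -2.72 to 1.49 for Il1b and from -1.37 to 0.12 for Cst3. Cxcl2 stayed lower, at -2.58 against -4.01. Mycl and Cxcl2 were left with fewer than the 100 UMIs otherwise required of a pair, so their values without these barcodes say little. Ifitm2 then had a Trikine over mono-IL-10 log2 ratio of 3.37 against 3.12, and Gbp5 a combination over Trikine log2 ratio of 1.22 against 0.72. The counts of called genes were 321 higher and 608 lower in the first comparison and 158 and 51 in the second.

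Neighbouring gates shared every limit but those on Lag3, Foxp3 and the ligands, and they show how far the same ratios were seen outside the members. Since the gates differ by the rule, the values are side by side with no test. In Lag3-positive cells Ifitm2 was at 303, 1607 and 1164 CPM, in ligand-negative cells at 141, 1230 and 930 CPM and in Foxp3-positive cells at 296, 905 and 715 CPM, so the order of the libraries was the same in all 4 gates. The Ifitm list was past the fold in all 3 genes of each gate, with medians of 1.93, 2.09, 2.24 and 1.42 in members, Lag3-positive, ligand-negative and Foxp3-positive cells. Naive and egress genes had medians of -1.36, -0.29, -0.87 and -0.26, and cytotoxic genes 1.23, 0.26, 0.83 and 0.58. Gzma was much higher in Lag3-positive cells (2436, 6719 and 5955 CPM) than in members (124, 1517 and 1601 CPM). Tcf7 was lower there (108, 49.4 and 33.1 CPM against 554, 169 and 174 CPM), and Il7r as well (309, 718 and 506 CPM against 620, 1106 and 994 CPM). Pdcd1 was at 307, 321 and 414 CPM in Lag3-positive cells, where the mono-IL-10 and Trikine libraries were close, unlike in the members (143 and 349 CPM) and in ligand-negative cells (115 and 243 CPM). Gbp5 was at 61.8, 48.7 and 57.0 CPM in Lag3-positive cells, 48.3, 49.8 and 60.7 CPM in ligand-negative cells and 100, 93.5 and 105 CPM in Foxp3-positive cells. The difference in Gbp5 between the mono-IL-10 and Trikine libraries was thus within 1.5-fold in these 3 gates, against a ratio of 0.436 (0.314 to 0.599) in the members, and the difference between gates was not tested. Chemokine medians for the combination over Trikine were 0.97 in members, 0.16 in Lag3-positive, 0.51 in ligand-negative and 0.27 in Foxp3-positive cells.

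**Figure D5:**
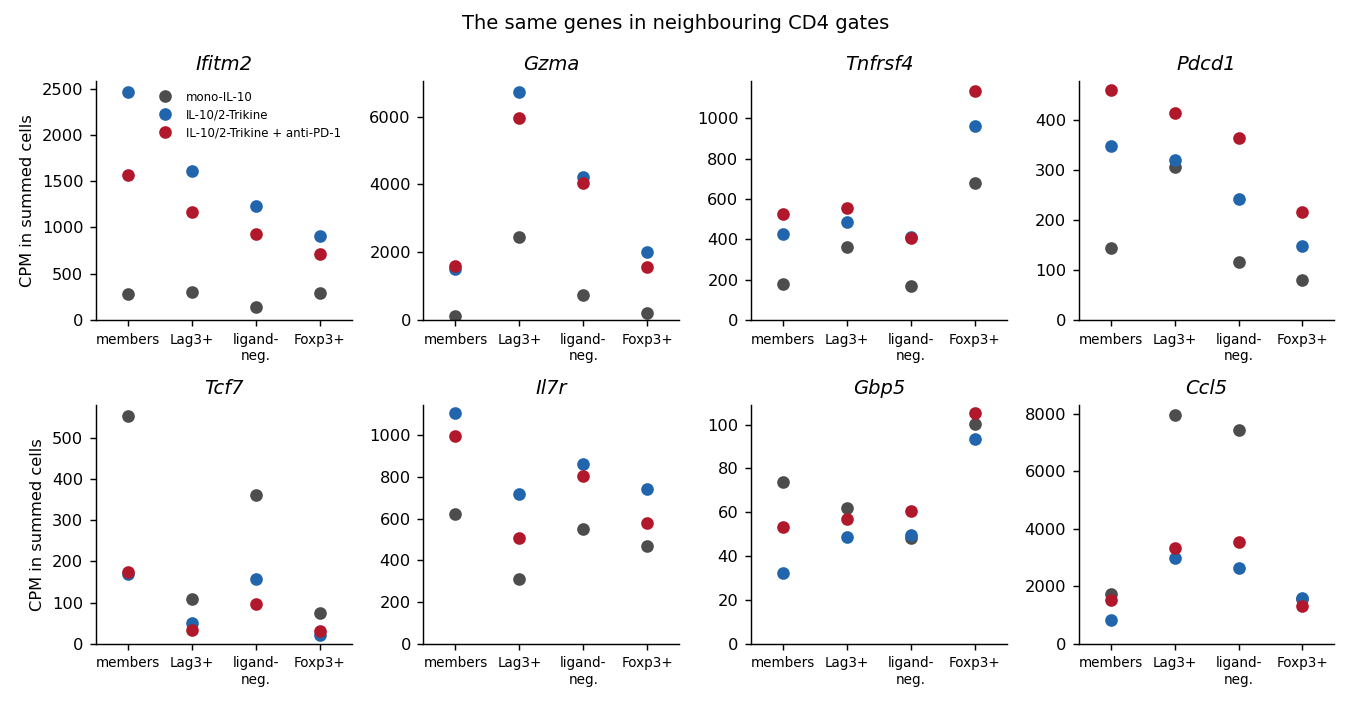
CPM of 8 genes in the summed cells of 4 CD4 gates (members, Lag3-positive, ligand-negative, Foxp3-positive), each point 1 library, y axes from 0 with their own ranges and no error bars. Ifitm2 stands at 2466 CPM in Trikine members and is higher than in mono-IL-10 in every gate, and Tcf7 is highest in mono-IL-10 members (554 CPM).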

How the data were processed

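The authors deposited raw UMI counts per gene and barcode for each of the 3 libraries, 1 sample per group, which Cell Ranger had produced. Its version is 8.0.0 in the file headers, the submitters' processing notes name mm10 and the methods another version and build, so gene coordinates were not taken from the files. The mono-IL-10 matrix summed to 158570946 UMIs, the IL-10/2-Trikine matrix to 197176873 and the combination matrix to 175794959, empty droplets included, and near-empty droplets of 10 to 100 UMIs were used as free RNA. Groups came from the sample titles and treatment labels.

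Members were found by the rule on raw UMIs and their counts were summed per library and scaled to CPM in pandas 2.3.3 and numpy 2.4.6 under Python 3.11.15. Mean values over cells of 1 library are not replicates, so no test was run and edgeR 4.0.16 gave TMM factors only. Genes with at least 100 UMIs in a pair were compared and called at 1.5-fold. Intervals at 95%, from scipy 1.17.1, were exact Clopper-Pearson for shares, exact Poisson for CPM, exact conditional binomial for CPM ratios and a log interval for ratios of shares. For shares of members with a UMI, each member was thinned to 1000 UMIs with seed 1. Background gates were B cells with 3 or more Cd79a and Cd79b UMIs, macrophages with 10 or more Lyz2, C1qa and C1qb UMIs and neutrophils with 20 or more S100a8 and S100a9 UMIs, each with under 2 T cell receptor UMIs. Doublets called with Scrublet in scanpy 1.11.5 at an expected rate of 0.1 were kept, and they made up 14.4%, 16.8% and 4.09% of kept barcodes and 18, 22 and 5 of the members; their removal was an alternative. The ratio, interval and thinning functions were run on simulated independent Poisson counts. That run did not cover the rule or differences between the cells of a library.

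The members and gene lists were chosen with earlier results of these data known. Named genes were the 10 highest and 10 lowest ratios where the higher library reached 50 CPM, leaving out mitochondrial, ribosomal, antigen receptor, hemoglobin, sex-linked, unnamed model and rule genes, plus up to 4 genes per list past the fold with at least 20 CPM, plus the genes of the thinned shares. Other genes given as values were picked from the lists after their values were seen. Alternatives were other limits of the rule, scalings and filters. Members with no B cell gene UMI, members with no Ccr7 UMI, Lag3 not used, the richest barcode left out and deep or mixed barcodes left out were alternatives added after seeing the data. A few genes, and a subset of members defined by 1 of them, are not reported here. Promoter sequences came from RefSeq on GRCm38.p6.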

Additional observations from a re-analysis of the deposited data

How the results depend on the processing

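No paired analysis was possible because each group was 1 library. There was likewise no replicate to leave out. Depth limits the rarer transcripts, since Il2, Il4, Il5 and Cxcr5 stayed under 100 UMIs. Among recomputed list medians 793 kept their direction and moved little, 19 moved and 4 changed sign, and among values of named genes 2053, 404 and 23 did. The causes of the changes below were not tested.

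The share ratio of Trikine over mono-IL-10, 0.708 of T cell barcodes, was 0.894 with the rule applied after thinning to 2000 UMIs, 0.904 with no Ccr7 UMI, 0.912 with a Tnfsf8 UMI required, 0.818 with 2 or more ligand UMIs, 0.838 with no B cell gene UMI, 1.08 of all kept barcodes and 1.16 of Foxp3-negative Cd4 barcodes. The combination over Trikine ratio, 1.09, was 1.29 after thinning, 0.885 with a Cd40lg UMI required, 1.36 with Lag3 not used, 0.949 of all kept barcodes and 0.579 of Foxp3-negative Cd4 barcodes.

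For Trikine over mono-IL-10 the 363 genes higher became 591 with TMM, 594 with median-of-ratios scaling, 841 with at least 20 UMIs, 134 with at least 400 UMIs and 120 at a fold of 2. The 679 lower became 448 with TMM, 444 with median-of-ratios, 1851 with at least 20 UMIs, 143 with at least 400 and 192 at a fold of 2. For the combination over Trikine the 158 higher became 676 with at least 20 UMIs, 27 with at least 400 and 10 at a fold of 2, and the 73 lower became 191 after thinning, 110 with Lag3 not used, 571 with at least 20 UMIs, 8 with at least 400 and 12 at a fold of 2.

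These values changed sign. For Trikine over mono-IL-10 the helper cytokine median of -0.83 became 0.29 with Cd40lg required, 0.076 with Lag3 not used and 0.20 with at least 20 UMIs, and the chemokine median of -0.62 became 0.041 with no Mki67 or Top2a UMI. For Trikine over mono-IL-10, Mycl became -2.12 with no Mki67 or Top2a UMI and -1.45 without deep and mixed barcodes, Jchain 4.16 after thinning and 0.14 without those barcodes, Penk 2.41 with Cd40lg required and Ccl4 0.43 with no B cell gene UMI. For the combination over Trikine, values with no Mki67 or Top2a UMI were 1.54 for Mycl, 0.11 for Trit1 and 0.28 for Ppie. Without deep and mixed barcodes they were 2.49 for Mycl, 1.49 for Il1b, 0.10 for Basp1, 0.37 for Trit1, 0.12 for Cst3 and 0.0032 for Ppie. After thinning they were 0.59 for Cst3, -1.23 for Il13, -0.29 for Ly6c2, -0.10 for Fos and 0.12 for Slfn5. With Lag3 not used Il13 was -0.54 and Ly6c2 -0.088, and Cst3 was 0.0089 with no myeloid UMI. The ratio of combination over Trikine shares with a UMI became 1.64 for Cxcr5 and 1.11 for Tnf at 2000 UMIs.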
